A study of Mus musculus with 24 samples.

Results

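The ligands and receptors of axon guidance were followed by family in wild-type and Setd3 knock-out mouse embryonic stem cells driven toward endoderm. The rule for members reads gene names and no measured value, although these families were taken up with earlier results of these data known. It takes Eph receptors and ephrins of classes A and B, semaphorins of classes 3 to 7, plexins, both neuropilins, Slits, Robos, netrins and Unc5 receptors. The rule found 67 genes among the 55401 gene entries of the count table, namely 3 netrins, 4 Unc5 receptors, 3 Slits, 4 Robos, 20 semaphorins, 9 plexins, 2 neuropilins, 8 ephrins and 14 Eph receptors. Of these, 66 had enough counts to enter the tests, as did 17144 genes in all. The exception was Ntn5, with 1 count in 24 libraries.

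CJ9 is a mouse embryonic stem cell line, and the knock-out is described as 1 line made from such cells by CRISPR-Cas9 editing of Setd3, so line and genotype cannot be told apart. Day 0 cells of both genotypes had been kept with LIF on mitotically inactivated mouse embryonic fibroblasts (feeders). The cells were then taken off the feeders and placed in serum-free differentiation medium, and on day 2 they were dispersed and moved to the same medium with Activin A, a ligand used to induce definitive endoderm. PolyA+ RNA was sequenced on days 0, 2, 3 and 4, with 3 libraries for each of the 8 groups. The labels do not say whether the 3 libraries of a group came from separate cultures, so the p-values measure the spread between these libraries, which may be technical.

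As background, guidance cues steer migrating cells and growing axons. Netrins are secreted ligands read by Dcc and Unc5 receptors, Slits are secreted ligands of Robo receptors, secreted class 3 semaphorins act through neuropilins and plexins, and ephrins are membrane-bound ligands of Eph receptor tyrosine kinases. In the early embryo several of them are used before any axon forms, in gastrulation movements, in the sorting of cells at tissue borders and in vessel growth.

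Library totals ran from 18531390 to 24244958 counts, and levels are given as CPM, in which counts are scaled to a common normalised library size. Setd3 itself stood at 97.1 to 127 CPM in the 12 wild-type libraries and at 29.1 to 48.8 CPM in the 12 knock-out libraries, so every knock-out library lay below every wild-type library. Its log2 fold change in the knock-out, by the quasi-likelihood test of edgeR (p adjusted by Benjamini-Hochberg), was -1.40 ± 0.06 on day 0 and -2.05 ± 0.06 on day 4 (adjusted p = 1.84e-14 and 6.22e-18). Here and below, ± after a log2 fold change is its size divided by the square root of the test statistic. Markers of naive stem cells summed to 2795 to 3216 CPM in the day 0 libraries of both genotypes. On day 4, 10 definitive endoderm markers summed to 4650 to 4883 CPM in wild-type and 1748 to 2101 CPM in knock-out libraries. All 10 were called lower in the knock-out (median log2 fold change -4.48), beside 27.6% of all genes. Their sum already stood at 633 to 704 CPM in wild-type and 1100 to 1219 CPM in knock-out libraries on day 0. On day 3 it overlapped, at 1334 to 1423 and 1242 to 1402 CPM. On day 4, 7 primitive streak markers (7 of 8 listed were found by name) summed to 1841 to 2315 against 218 to 405 CPM. The 10 mesoderm markers summed to 94.9 to 164 against 6.28 to 10.7 CPM on that day. For 8 extraembryonic endoderm markers the sums were 28.5 to 67.8 against 1.00 to 1.26 CPM. Of 12 neural markers, Sox1 and Tubb3 were at 0 counts in all groups. On day 4, 5 of the 12 had a mean of 1 CPM or more in wild-type and 6 in knock-out libraries. The 12 summed to 221 to 333 CPM in wild-type and 672 to 696 CPM in knock-out libraries on that day. Of 7 tested, 5 were higher in the knock-out and 0 lower, beside 26.3% and 27.6% of all genes. In wild-type day 0 libraries the sum was 407 to 474 CPM, with Stmn2 alone at a mean of 336 CPM. On day 4 Stmn2 had means of 145 CPM in wild-type and 163 CPM in knock-out libraries. The 8 endothelial markers summed to 37.0 to 78.4 against 3.71 to 4.99 CPM on day 4, when Kdr reached 75.2, 36.3 and 32.6 CPM in the 3 wild-type day 4 libraries, while Cdh5 stayed at or below 0.295 CPM and Pecam1 at or below 1.02 CPM there. These are bulk libraries, in which fewer cells of a type and less RNA per cell cannot be told apart.

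Guidance genes were widely measured in both genotypes. A group mean of 1 CPM or more was reached by 64 members in some group and by 44 members in all 8 groups. Sema3g, Plxnb3 and Ntn5 stayed below 1 CPM throughout. Among the 64 members that reached 1 CPM, the highest group mean fell in wild-type day 4 for 30, in knock-out day 0 for 11 and in knock-out day 2 for none. Neither these counts nor those at 1 CPM or more were made over all tested genes. Per kilobase of exon, a few members led their families. Epha2 was the highest Eph receptor on day 0 and Epha1 the highest on wild-type day 3. Plxnb2, Robo1 and Unc5b were the highest plexin, Robo and Unc5 receptor in every group, with Unc5b at 93.3% or more of the summed Unc5 level per kilobase. Ntn1 was the highest netrin and, outside wild-type day 4, Slit3 the highest Slit in each group.

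**Figure D1:**
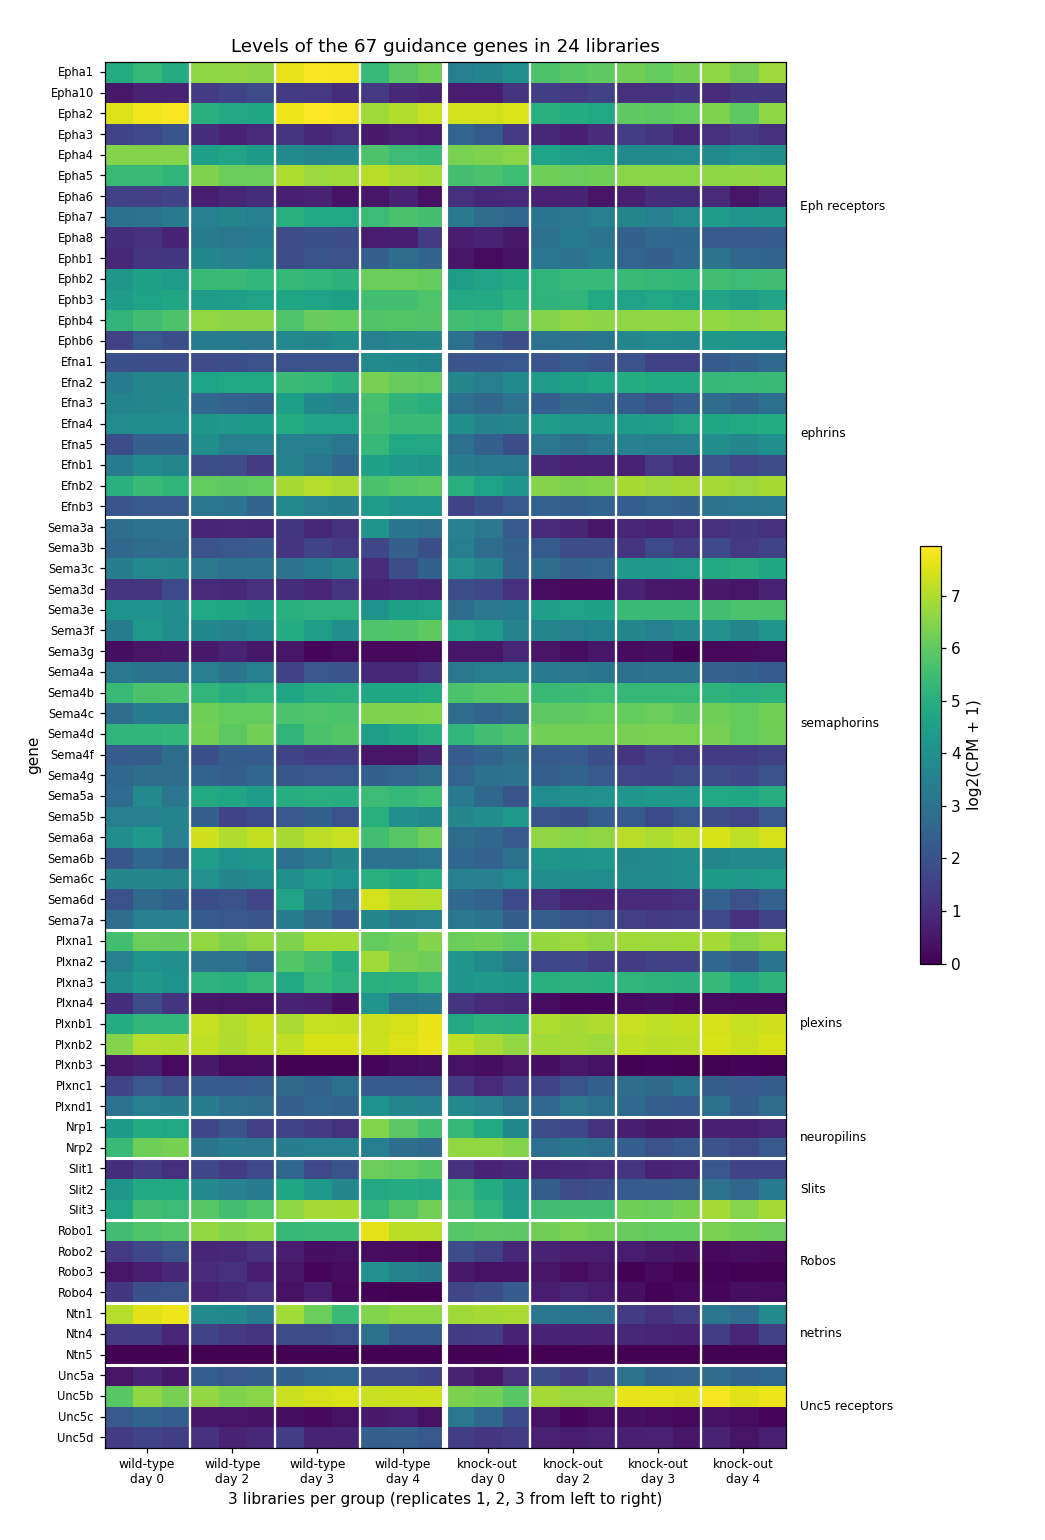
Levels of the 67 guidance genes (rows, by family) in the 24 libraries (columns, 3 per group), as log2(CPM + 1) from dark (0) to bright. Slit1, Sema6d, Nrp1 and Robo3 are brighter in the 3 wild-type day 4 libraries than in the 3 knock-out day 4 libraries.

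The knock-out differed from the wild-type in few guidance genes on day 0 and in most of them on day 4. On day 4, 35 members were lower and 19 higher in the knock-out, together 81.8% of the 66 tested, while 54% of all 17144 tested genes passed the same test (adjusted p under 0.05), 27.6% lower and 26.3% higher. Changes of at least 2-fold that passed the test numbered 27 lower and 11 higher members, beside 11.6% of all genes lower and 7.47% higher. The median log2 fold change was -0.64 over the members and -0.01 over all genes tested. On day 3, 24 members were lower and 11 higher (53.0%, beside 41.2% of all genes, 20.5% lower and 20.8% higher). On day 2, 16 were lower and 3 higher (28.8%, beside 32% of all genes, 15.7% lower and 16.2% higher). On day 0, 9 were lower and 5 higher (21.2%, beside 21.1% of all genes, 10.5% lower and 10.6% higher), so that the members' share was at the background on day 0 and below it on day 2. Receptors and ligands both contributed on day 4, with 20 of 33 tested ligands and 15 of 33 receptors lower, and 10 ligands and 9 receptors higher. The day 4 comparison was also the steadiest: 48 of its 54 calls held when each library of the 2 groups was left out in turn, against 26 of 35 on day 3, 8 of 19 on day 2 and 7 of 14 on day 0. Without wild-type day 2 replicate 1 the lower members of day 2 numbered 7, without knock-out day 2 replicate 2 they numbered 9 and without its replicate 1 they numbered 10. The 5 higher members of day 0 became 1 without wild-type day 0 replicate 1 and 3 without its replicate 3 or without knock-out replicate 2, and 0 when only the 6 day 0 libraries were fitted.

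On day 0 the lower members were Epha1 (-1.41 ± 0.21), Epha6, Ephb1 (-2.03 ± 0.33), Efna3 (-0.87 ± 0.22), Efnb2 (-0.59 ± 0.13), Sema3e, Sema4c, Sema6a (-1.54 ± 0.25) and Plxnc1, and the higher ones Epha5, Ephb2, Ephb3, Ephb6 and Nrp2 (0.59 ± 0.18). Each of these 5 higher calls was lost without 2 or 3 of the 6 libraries, each left out alone. Sema6a, the semaphorin with the largest day 0 difference, stood at 14.1, 18.9 and 10.6 CPM in wild-type and 6.01, 5.41 and 3.55 CPM in knock-out libraries, groups that did not overlap (adjusted p = 2.05e-04). On day 2 the higher members were Ephb3 (0.64 ± 0.11), Efnb2 (0.41 ± 0.12) and Sema4b (0.32 ± 0.09), the last lost without wild-type day 2 replicate 2.

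Across days, 22 members were lower in the knock-out on both day 3 and day 4, and 8 were higher on both: Epha8, Ephb4, Sema3c, Sema3e, Sema4a, Sema4b, Sema4d and Sema6b. Without wild-type day 3 replicate 1 these 8 became 5, as the day 3 calls of Sema3c, Sema3e and Sema6b were lost. The 22 became 18 without that library, as the day 3 calls of Nrp1, Plxna4, Sema3f and Unc5d were lost. That of Sema6c was lost without knock-out day 3 replicate 1 or 2 or wild-type day 3 replicate 2. How many of all tested genes follow each of these patterns over days was not counted. Efnb1, Efnb3, Ntn4, Plxna2, Sema5a, Sema6d, Slit1 and Slit2 were lower on days 2, 3 and 4. Of these 8 day 2 calls, those of Efnb3, Sema5a and Sema6d were each lost without knock-out day 2 replicate 1 or 2 or wild-type day 2 replicate 2, which left 5, and without wild-type day 2 replicate 1 that of Ntn4 was lost as well, which left 4. No member was called in the same direction on all 4 days. Over the 4 days, 12 were lower on one day and higher on another, among them Epha5 and Nrp2, which were lower on days 3 and 4, and Sema3e, which was higher on both. A further 8 were called on no day, among them the abundant plexins Plxnb1 and Plxnb2. When only the 2 groups of a day were fitted, Plxnb1 was lower on day 2 and Plxnb2 on days 2 and 3.

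The promoters of some members follow, to show the bases before the RefSeq start of each gene. They are the genes with the largest day 4 change among members called in the same direction on days 3 and 4 with a group mean of 10 CPM or more and an entry in the promoter table, leaving out Plxna2, Sema3c and Sema4d, whose windows overlap annotated exons. Each is the 250 bases before the start in the RefSeq promoter table (GRCm38.p6), which held 58 of the 67 members. Sema6d had 2 starts there, and only the window of the most upstream one is shown. Capitals mark a T-box half-site (AGGTGT), a TCF/LEF core (CTTTGA) or a forkhead core (TGTTTA) on either strand. The first 3 genes were lower in the knock-out and the last 2 higher. The day 3 call of Nrp1 was lost without any 1 of the 6 libraries of that day, and that of Sema3e without any 1 of 4 of them. They lie at chr8:128358823-128359072 (Nrp1), chr2:124089719-124089968 (Sema6d), chrX:99135811-99136060 (Efnb1), chr5:14025026-14025275 (Sema3e) and chr5:137349859-137350108 (Ephb4), all on the plus strand. The Nrp1 window lies inside the GENCODE bounds of the gene, which begin at position 128358604, but overlaps no annotated exon.
Nrp1: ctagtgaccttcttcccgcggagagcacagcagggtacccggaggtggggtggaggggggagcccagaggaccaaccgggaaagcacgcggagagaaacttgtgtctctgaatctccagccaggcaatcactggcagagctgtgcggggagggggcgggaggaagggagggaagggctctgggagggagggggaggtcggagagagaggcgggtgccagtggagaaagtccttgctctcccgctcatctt
Sema6d: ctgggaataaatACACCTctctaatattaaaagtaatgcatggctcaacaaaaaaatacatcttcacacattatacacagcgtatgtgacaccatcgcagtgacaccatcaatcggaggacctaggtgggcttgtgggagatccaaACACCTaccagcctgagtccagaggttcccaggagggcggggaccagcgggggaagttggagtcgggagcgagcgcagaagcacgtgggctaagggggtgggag
Efnb1: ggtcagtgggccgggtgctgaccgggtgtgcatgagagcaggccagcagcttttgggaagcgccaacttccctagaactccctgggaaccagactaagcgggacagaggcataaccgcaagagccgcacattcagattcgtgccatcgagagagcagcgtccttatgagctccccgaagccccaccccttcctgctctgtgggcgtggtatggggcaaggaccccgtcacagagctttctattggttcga
Sema3e: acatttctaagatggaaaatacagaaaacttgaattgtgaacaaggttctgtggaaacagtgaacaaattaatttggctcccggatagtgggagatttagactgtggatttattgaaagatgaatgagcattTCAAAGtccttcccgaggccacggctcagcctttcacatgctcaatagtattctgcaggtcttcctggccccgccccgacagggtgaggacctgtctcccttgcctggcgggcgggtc
Ephb4: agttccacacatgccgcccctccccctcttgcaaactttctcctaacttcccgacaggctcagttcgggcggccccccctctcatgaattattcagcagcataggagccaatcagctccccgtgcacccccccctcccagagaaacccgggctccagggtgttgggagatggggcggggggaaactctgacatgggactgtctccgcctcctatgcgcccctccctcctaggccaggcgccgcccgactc
Sema6d held 2 T-box half-sites and Sema3e 1 TCF/LEF core, while Nrp1, Efnb1 and Ephb4 held none of the 3 motifs in this window. Among 74 windows of member genes, 9.46% held the T-box half-site, 5.41% the TCF/LEF core and 2.70% the forkhead core, against 11.8%, 13.8% and 12.03% of all 32851 windows. The median share of G and C bases was 64.4% in the members' windows and 52.4% in all. These matches describe letters only, and binding was not measured.

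**Figure D2:**
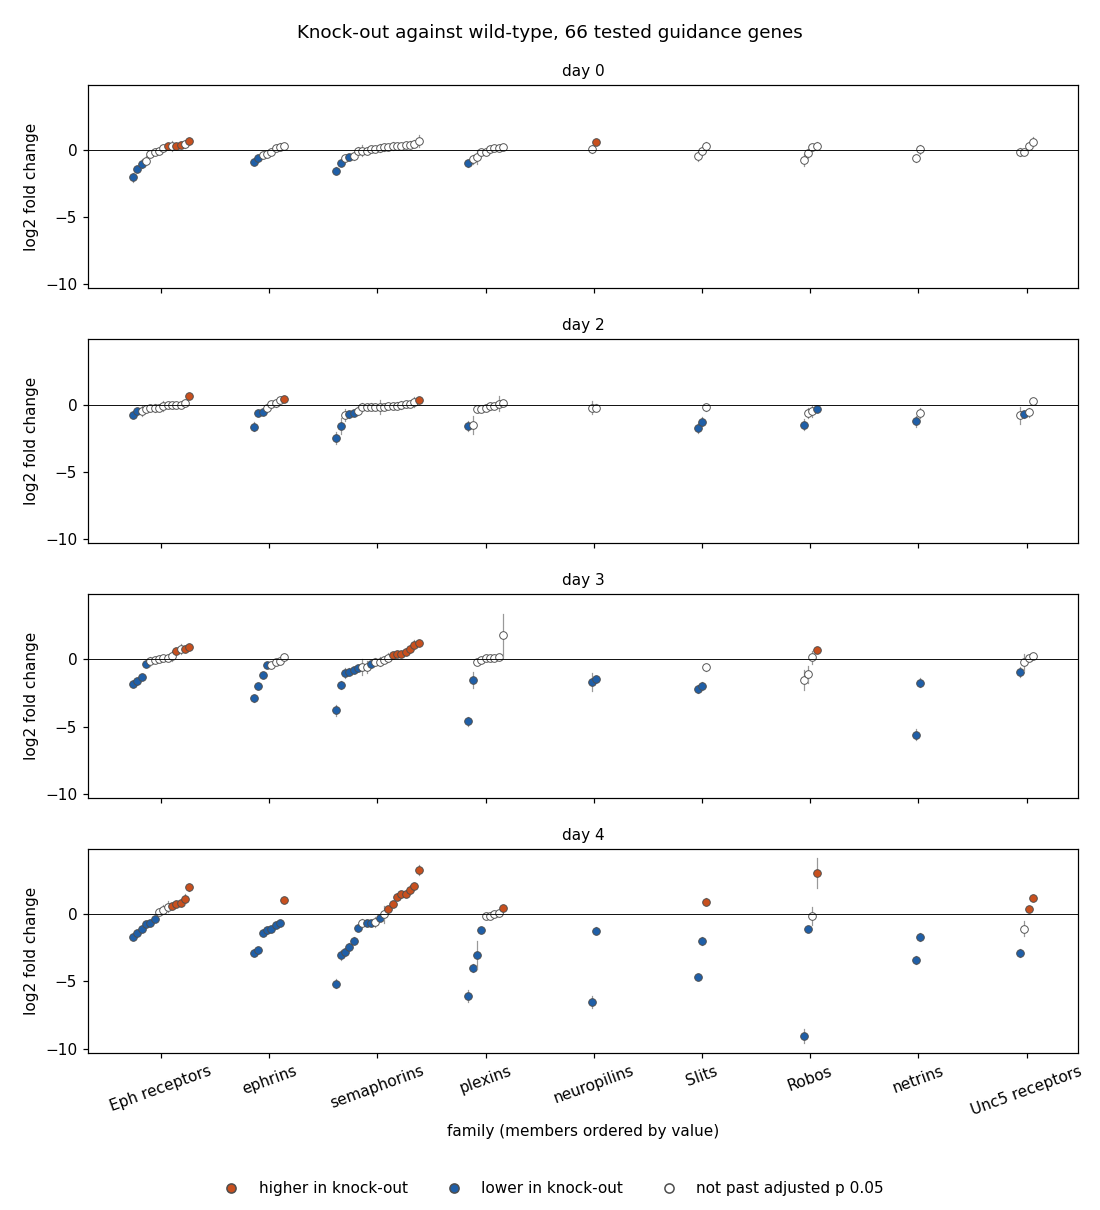
Log2 fold change of knock-out against wild-type (vertical axis) for the 66 tested guidance genes, by family and day; bars show ± the log2 fold change divided by the root of the test statistic. Filled points passed the test: 9 lower and 5 higher on day 0, and 35 lower and 19 higher on day 4, where they spread furthest from 0.

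Most members changed on each step of the wild-type course. From day 0 to day 2, 27 members rose and 22 fell (beside 63.8% of all genes called, 32% rising and 31.8% falling), from day 2 to day 3, 22 rose and 19 fell (beside 42.4%, 21.4% rising and 21.1% falling), and from day 3 to day 4, 32 rose and 15 fell (beside 45.5%, 22.4% rising and 23.1% falling). Called members made up 74.2%, 62.1% and 71.2% of the 66 in these steps. In the knock-out 27 rose and 27 fell from day 0 to day 2 (beside 60.1%, 29.5% rising and 30.6% falling), 14 rose and 13 fell from day 2 to day 3 (beside 29.1%, 14.7% rising and 14.4% falling), and 10 rose and 2 fell from day 3 to day 4 (beside 11.6%, 5.76% rising and 5.83% falling). The first step was shared in direction: 25 members rose in both genotypes and 20 fell in both, with none called in opposite directions. The share of all genes with such pairs of calls, in this or the last step, was not counted. In the last step fewer members were called in the knock-out than in the wild-type, as was so over all genes (11.6% against 45.5%). Of the 32 members that rose in the wild-type from day 3 to day 4, 9 also rose in the knock-out and 23 were not called there. For 15 of these 23 the difference between the genotypes' steps passed its own test. Of the 15 that fell in the wild-type, 2 fell in the knock-out and 13 were not called, 12 of them with a difference between steps that passed. Over all members, the step from day 3 to day 4 differed between genotypes for 31 (14 higher and 17 lower in the knock-out, beside 23.8% of all genes, 12.6% higher and 11.2% lower), the step from day 2 to day 3 for 17 (8 higher and 9 lower, beside 10.9%, 6.61% higher and 4.33% lower) and the step from day 0 to day 2 for 7 (3 higher and 4 lower, beside 7.34%, 4.27% higher and 3.07% lower). When only the 6 knock-out libraries of days 3 and 4 were fitted, 24 members rose and 4 fell in that step, while over all genes the calls also went from 987 to 1922 rising and from 999 to 1776 falling, of 14462 tested. The 2 falls of the fit to all libraries, of Plxnc1 and Sema4a, were each lost without some library, and both were lost without knock-out day 4 replicate 3.

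**Figure D3:**
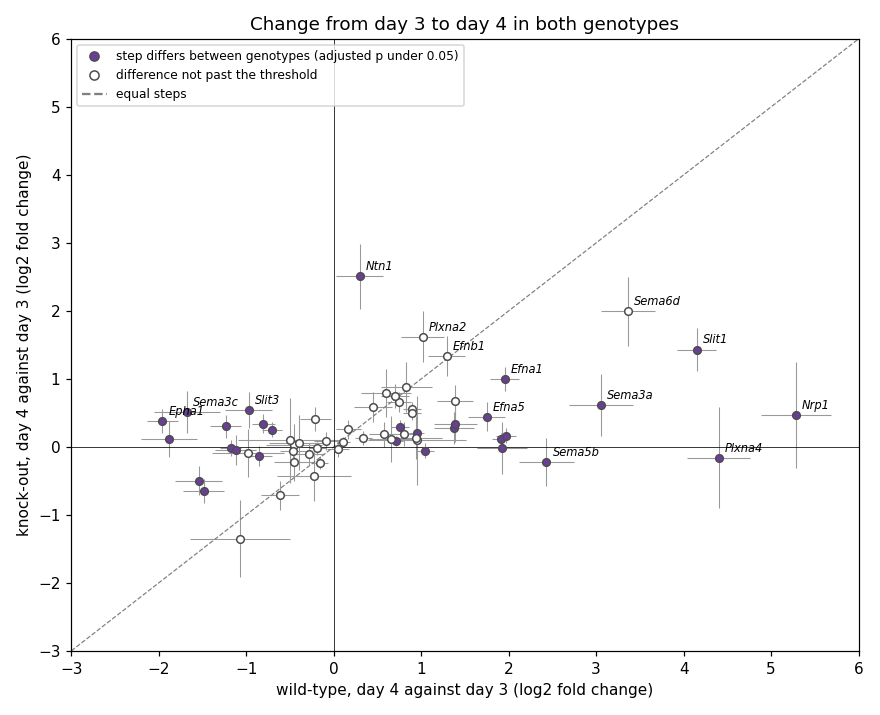
Change from day 3 to day 4 in wild-type (horizontal axis) and knock-out (vertical axis) cells, in log2 fold change with ± bars, for 63 members; Robo3, Robo4 and Plxnb3, with a group at 1 count or none, are left out. Among the filled points, whose step differed between genotypes, Epha1 and Sema3c lie on the left, Slit1, Plxna4 and Nrp1 far to the right, and Ntn1 at the top (2.51 in the knock-out).

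Among the members, netrin-1 had the largest difference between genotypes on day 3. Ntn1 encodes the netrin that attracts or repels axons and also acts on epithelial cells outside the nervous system. In wild-type libraries it stood at 133, 193 and 214 CPM on day 0, 12.5, 12.2 and 8.96 on day 2, 115, 70.9 and 40.7 on day 3 and 86.7, 95.5 and 95.7 on day 4. Knock-out libraries held 113, 118 and 122 CPM on day 0, 7.73, 7.59 and 6.79 on day 2, 1.61, 1.20 and 1.80 on day 3 and 7.76, 5.90 and 12.7 on day 4. Both genotypes thus lost most Ntn1 by day 2, and on each of the 4 days all wild-type libraries lay above all knock-out libraries, with a difference that was called on days 3 and 4 but not on days 0 and 2 (adjusted p = 0.117 and 0.233). The log2 fold change of the knock-out was -5.61 ± 0.41 on day 3 (adjusted p = 1.11e-08) and -3.40 ± 0.32 on day 4 (adjusted p = 1.03e-07). From day 2 to day 3 Ntn1 rose in the wild-type (2.75 ± 0.32) and fell in the knock-out (-2.25 ± 0.50), and the difference between these steps was -5.004 ± 0.58 (adjusted p = 2.04e-05). It then rose in the knock-out from day 3 to day 4 (2.51 ± 0.48, adjusted p = 0.00250), from a mean of 1.53 to 8.80 CPM, which is still below every wild-type library of that day. Ntn4, a netrin of basement membranes, was a low gene with group means up to 4.79 CPM, lower in the knock-out on days 2, 3 and 4 (-1.68 ± 0.31 on day 4); its day 2 call was lost without wild-type day 2 replicate 1.

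Among the netrin receptors of the Unc5 family, which mediate repulsion, Unc5b made up nearly the whole level. Unc5b rose in both genotypes from day 2 to day 3 (0.88 ± 0.14 and 0.85 ± 0.13) and on day 4 stood at 156, 158 and 163 CPM in wild-type and 227, 193 and 216 CPM in knock-out libraries, groups that did not overlap (0.42 ± 0.13, adjusted p = 0.0127). This small difference was no longer called without knock-out day 4 replicate 1. Unc5d moved further, though at a low level: 4.33, 4.38 and 3.55 CPM in wild-type day 4 libraries against 0.681, 0.333 and 0.632 CPM (-2.88 ± 0.31, adjusted p = 2.31e-08). Unc5a fell in the wild-type from day 3 to day 4 (-1.12 ± 0.23) and was higher in the knock-out on day 4, at 5.44 ± 0.700 against 2.41 ± 0.350 CPM (SD, n = 3; 1.18 ± 0.23). Unc5c was a day 0 gene, at 4.25 CPM in wild-type and 5.23 CPM in knock-out libraries, and at most 0.559 CPM in any later library.

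Slits and Robos separated on day 4. Slit1 and Slit2 were lower and Slit3 higher in the knock-out. Slit1 stood at 5.38, 2.34 and 3.17 CPM in wild-type libraries on day 3 and at 71.3, 64.6 and 58.8 CPM on day 4, while knock-out libraries held 1.27, 0.736 and 0.789 CPM on day 3 and 3.45, 2.09 and 2.04 on day 4. Wild-type Slit1 on day 4 thus stood far above every other group, with a rise of 4.15 ± 0.22 from day 3 and a difference of -4.67 ± 0.23 in the knock-out (adjusted p = 1.51e-13). It also rose in the knock-out (1.43 ± 0.31), by less than in the wild-type (difference of steps -2.72 ± 0.40, adjusted p = 2.47e-05). Slit2 held 12.5, 10.5 and 8.70 CPM in the wild-type on day 2 and 27.1, 29.0 and 27.2 on day 4, and in the knock-out 4.07, 2.50 and 2.84 CPM on day 2 and 6.90, 5.14 and 8.71 on day 4. From day 0 to day 2 it fell further in the knock-out (difference of steps -2.07 ± 0.46, adjusted p = 0.00981), and it stayed lower on days 3 and 4 (-2.20 ± 0.33 and -2.01 ± 0.31). Slit3 ran the other way at the last step. Wild-type libraries held 96.7, 116 and 119.6 CPM on day 3 and 38.3, 55.2 and 75.7 on day 4, and knock-out libraries 72.2, 71.6 and 78.9 CPM on day 3 and 117, 90.2 and 117 on day 4. The wild-type fall was -0.97 ± 0.27 (adjusted p = 0.00680), the knock-out change did not pass (0.54 ± 0.27, adjusted p = 0.216), and the difference of steps was 1.51 ± 0.38 (adjusted p = 0.00728). By level per kilobase, Slit1 was the highest Slit in wild-type day 4 at 51.3% of the family and Slit3 in knock-out day 4 at 96.2%.

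Robo1, the main Robo here, rose, fell and rose again in the wild-type, while in the knock-out it rose from day 0 to day 2 and no later step was called. Its wild-type means were 51.9, 95.1, 40.1 and 157 CPM on days 0, 2, 3 and 4, and its knock-out means 59.0, 76.5, 66.5 and 74.6 CPM. Knock-out Robo1 was therefore higher on day 3 (0.73 ± 0.11, adjusted p = 1.52e-05) and lower on day 4 (-1.07 ± 0.11, adjusted p = 1.97e-08), and its steps differed between genotypes both from day 2 to day 3 (1.05 ± 0.15) and from day 3 to day 4 (-1.80 ± 0.15). Robo3, which alters in commissural neurons the response to Slits, had a mean over 1 CPM in 1 group, wild-type day 4, at 15.4, 10.7 and 9.19 CPM. The knock-out libraries of that day held 1 count of Robo3 in all, against 745 in the wild-type, a ratio of 743 whose 95% counting interval runs from 133 to 29378. Robo4, an endothelial Robo that lies next to Robo3, had 1 count in the 3 wild-type day 4 libraries together and 11 in the knock-out, a ratio of 11.03 with a 95% counting interval from 1.60 to 475; this call was lost without knock-out replicate 2 or wild-type replicate 2 or 3. Robo2 and Robo4 were highest on day 0, at 2.24 and 2.42 CPM in wild-type and 1.87 and 2.95 CPM in knock-out libraries.

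Among the 20 semaphorins, 9 were lower and 8 higher in the knock-out on day 4, and 3 were not called. Sema6d, a transmembrane semaphorin that signals through class A plexins and has a role in heart morphogenesis, had the largest difference. Wild-type libraries held 2.97, 5.78 and 4.53 CPM on day 0, 2.78, 3.06 and 2.18 on day 2, 23.8, 11.9 and 7.28 on day 3 and 169, 139 and 134 on day 4. In the knock-out it stood at 1.16, 0.765 and 0.698 CPM on day 2, 0.974, 1.01 and 1.10 on day 3 and 4.67, 2.95 and 4.72 on day 4. All knock-out libraries lay below all wild-type libraries on both days, with differences of -3.79 ± 0.44 and -5.16 ± 0.35 (adjusted p = 2.23e-06 and 1.10e-09), although the rise from day 3 to day 4 was called in both genotypes (3.36 ± 0.31 and 2.00 ± 0.51). The knock-out rise was lost without any 1 of 4 libraries (knock-out day 3 replicates 1 and 2, day 4 replicates 1 and 3), and the day 2 difference without any 1 of the 6.

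Class 3 semaphorins, the secreted ligands of neuropilin and plexin complexes, went both ways. Sema3a, the prototype repellent, stood at 16.4, 7.54 and 6.55 CPM in wild-type day 4 libraries and at 1.13, 1.43 and 1.17 CPM in the knock-out (-3.02 ± 0.36, adjusted p = 2.56e-07). Sema3f, a ligand of Nrp2, held 53.1, 54.8 and 61.7 against 15.2, 11.6 and 16.8 CPM (-1.96 ± 0.26, adjusted p = 3.10e-06). For both genes the groups did not overlap on day 4. Sema3c and Sema3e did the opposite. Sema3c stood at 6.84, 8.68 and 11.4 CPM on day 3 and 1.03, 2.79 and 4.50 on day 4 in the wild-type, against 18.5, 18.3 and 20.9 CPM on day 3 and 27.2, 29.8 and 25.1 on day 4 in the knock-out. All knock-out libraries lay above all wild-type libraries on both days (1.10 ± 0.32 on day 3, 3.29 ± 0.36 on day 4, adjusted p = 3.74e-07), the day 3 call being lost without wild-type day 3 replicate 1. Sema3e, a ligand that binds Plxnd1 directly, reached 46.0, 50.8 and 50.0 CPM in the knock-out and 15.8, 21.9 and 23.6 in the wild-type on day 4 (1.26 ± 0.11, adjusted p = 9.46e-10), after being lower in the knock-out on day 0 (-0.997 ± 0.13). Its day 3 call was lost without replicate 1 or 2 of either genotype. Of the low members, Sema3d was lower in the knock-out on day 2 (-2.48 ± 0.47, with group means of 0.168 and 0.964 CPM), Sema3b was called on no day and Sema3g stayed under 1 CPM.

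The semaphorins of classes 4 and 6 are membrane-bound. Sema6a rose from day 0 to day 2 in both genotypes (3.34 ± 0.20 in the wild-type, 4.26 ± 0.23 in the knock-out). From day 3 to day 4 it fell in the wild-type (-1.23 ± 0.18), from 119, 141 and 155 CPM on day 3 to 45.3, 57.8 and 73.2 on day 4, while knock-out libraries held 138, 126 and 141 CPM on day 3 and 177, 147 and 174 on day 4 (0.30 ± 0.17, adjusted p = 0.300). The day 4 difference was 1.496 ± 0.18 (adjusted p = 1.17e-06) and the difference of steps 1.53 ± 0.25 (adjusted p = 1.84e-04). Sema4d, a ligand of Plxnb1, fell in the wild-type from a mean of 47.1 to 25.9 CPM and stood at 80.4 and 73.1 CPM in the knock-out (1.49 ± 0.15 on day 4). Sema4a fell in both later steps of the wild-type, from a mean of 8.97 CPM on day 2 to 1.01 on day 4, and stood at 7.99 and 4.35 CPM in the knock-out (2.09 ± 0.22 on day 4). Sema4b (0.36 ± 0.09), Sema4f (1.82 ± 0.32) and Sema6b (0.75 ± 0.17) were likewise higher in the knock-out on day 4. Lower on that day were Sema5b (-2.81 ± 0.32), Sema7a (-2.44 ± 0.29), Sema4g (-1.002 ± 0.17), Sema6c (-0.65 ± 0.10), Sema5a (-0.63 ± 0.21) and, by a small margin, Sema4c (-0.25 ± 0.07). The Sema5a call was lost without knock-out day 4 replicate 1 or 2 or wild-type day 4 replicate 3. Sema7a, a membrane-anchored semaphorin, went in opposite directions like Ntn1: from day 2 to day 3 it rose in the wild-type (0.88 ± 0.28) and fell in the knock-out (-1.01 ± 0.31), with a difference of steps of -1.88 ± 0.42 (adjusted p = 0.00428). The wild-type rise was lost without wild-type day 3 replicate 1 or day 2 replicate 3, and the knock-out fall without knock-out day 2 replicate 1 or day 3 replicate 2.

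Among the plexins, the semaphorin receptors, Plxnb1 and Plxnb2 were not called between genotypes and Plxna2 and Plxna4 had large differences. Plxnb1 had group means of 30.9 to 179 CPM and Plxnb2 of 114 to 186 CPM. Plxna2, which binds class 6 semaphorins, was measured at 7.24, 7.01 and 5.03 CPM on day 2, 56.1, 45.4 and 29.9 on day 3 and 112, 78.7 and 74.8 on day 4 in the wild-type. The knock-out had 2.31, 2.24 and 1.75 CPM on day 2, 1.65, 1.93 and 1.89 on day 3 and 5.31, 4.05 and 7.49 on day 4. The groups did not overlap on these days, and the differences were -1.61 ± 0.37, -4.58 ± 0.33 and -3.98 ± 0.29 (adjusted p = 0.00273, 4.32e-09 and 1.48e-09). The difference of its steps from day 2 to day 3 was -2.97 ± 0.53 (adjusted p = 0.00101). Plxna4, a receptor for Sema3a with neuropilin-1, stood on wild-type day 4 at 16.8, 7.68 and 8.60 CPM against 0.182, 0.143 and 0.146 CPM in the knock-out (-6.08 ± 0.43, adjusted p = 2.30e-11). Its day 3 call, with overlapping groups, was lost without any 1 of 5 libraries. Plxnd1 was lower in the knock-out on day 4 (-1.16 ± 0.22), with 12.5 ± 2.92 CPM in wild-type and 5.59 ± 1.34 CPM in knock-out libraries (SD, n = 3). Plxna1, with group means of 61.0 to 111 CPM, was slightly higher in the knock-out on day 4 (0.48 ± 0.15), a call lost without replicate 1 of either group, and Plxna3 and Plxnc1 were not called there. Plxnb3 held 20 counts or fewer in each group after day 0, and its day 4 difference rested on 11 counts against 1 (ratio 10.97, 95% counting interval 1.59 to 472), lost without knock-out replicate 1 or 3 or wild-type replicate 3.

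Neuropilins, the co-receptors of class 3 semaphorins and of vascular endothelial growth factor, took different courses in the wild-type. Nrp1 stood at 19.3, 28.0 and 25.8 CPM on day 0, 2.21, 3.32 and 1.87 on day 2, 2.08, 1.60 and 1.25 on day 3 and 86.3, 59.2 and 46.4 on day 4 in the wild-type. Knock-out libraries overlapped with these at first, with 38.2, 27.2 and 12.2 CPM on day 0 and 2.71, 2.29 and 1.25 on day 2, and then held 0.593, 0.414 and 0.482 CPM on day 3 and 0.635, 0.619 and 0.827 on day 4. The wild-type rise of the last step, 5.28 ± 0.40, was not called in the knock-out (0.47 ± 0.78, adjusted p = 0.768), which left a day 4 difference of -6.52 ± 0.45 (adjusted p = 8.92e-10) and a difference of steps of -4.81 ± 1.00 (adjusted p = 0.00159). The smaller difference on day 3 was lost when any 1 of the 6 libraries was left out. Nrp2 was mainly a day 0 gene, at 40.6, 72.1 and 79.1 CPM in wild-type and 101, 100.3 and 88.6 CPM in knock-out libraries, and stood at 7.27 and 3.10 CPM on day 4 (-1.22 ± 0.26, adjusted p = 5.10e-04). Per kilobase, Nrp2 was the higher neuropilin in 7 groups and Nrp1 in wild-type day 4, at 91.4% of the pair.

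**Figure D4:**
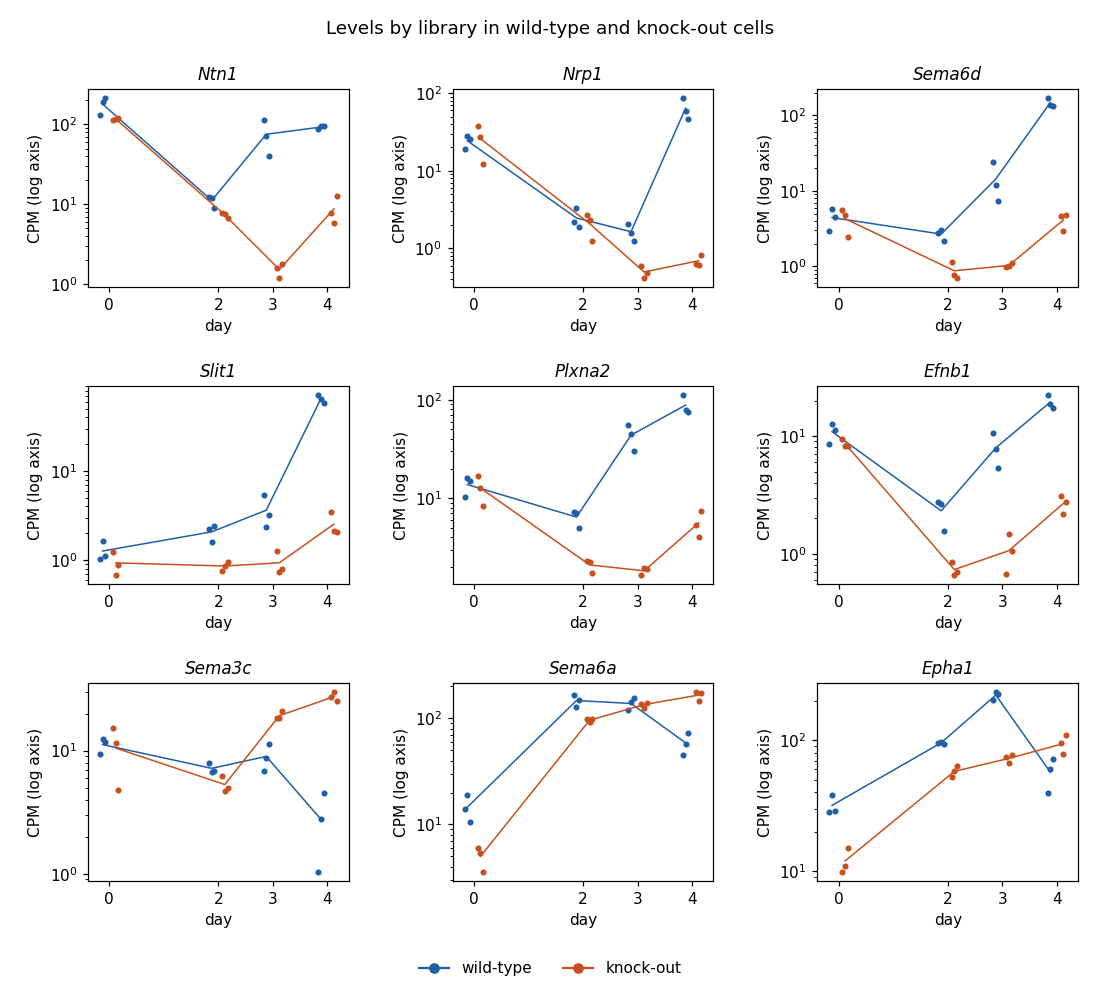
CPM (log axis) by day for 9 guidance genes, with a point for each library and a line through the means of 3 libraries, wild-type in blue and knock-out in orange. On day 4 the knock-out points of Ntn1, Nrp1, Sema6d, Slit1, Plxna2 and Efnb1 lie below all wild-type points, and those of Sema3c, Sema6a and Epha1 above them.

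Most ephrins rose at the last wild-type step and were lower in the knock-out. From day 3 to day 4, 7 of 8 ephrins rose in the wild-type and Efnb2 fell. On day 4 the same 7, Efna1, Efna2, Efna3, Efna4, Efna5, Efnb1 and Efnb3, were lower in the knock-out and Efnb2 was higher. The summed ephrin level of that day was 268 to 316 CPM in wild-type and 206 to 229 CPM in knock-out libraries. Efna3, a lipid-anchored ligand of EphA receptors, stood at 21.6, 12.2 and 10.4 CPM on day 3 and 49.0, 34.8 and 31.6 on day 4 in the wild-type, against 4.02, 2.90 and 4.21 CPM on day 3 and 6.40, 4.90 and 6.47 on day 4 in the knock-out (-2.70 ± 0.22 on day 4, adjusted p = 9.45e-10). Efnb1, a transmembrane ligand that sorts cells at tissue borders, held 2.78, 2.63 and 1.55 CPM on day 2, 10.7, 7.77 and 5.36 on day 3 and 22.2, 18.6 and 17.3 on day 4 in the wild-type. In the knock-out it held 0.854, 0.663 and 0.698 CPM on day 2, 0.677, 1.47 and 1.05 on day 3 and 3.09, 2.19 and 2.77 on day 4. The knock-out stayed below in every library, with differences of -1.65 ± 0.33, -2.90 ± 0.27 and -2.85 ± 0.23 (adjusted p = 4.75e-04, 7.38e-09 and 2.78e-10). The rise from day 3 to day 4 was called in both genotypes (1.29 ± 0.21 and 1.34 ± 0.30). Efna1 (-1.38 ± 0.16), Efna5 (-1.14 ± 0.21), Efnb3 (-1.13 ± 0.17), Efna2 (-0.83 ± 0.11) and Efna4 (-0.63 ± 0.10) made up the other lower ephrins of day 4. Efnb2, a ligand of EphB receptors best known from arteries, stood at 119.6, 134 and 122 CPM on wild-type day 3 and at 49.7, 56.3 and 60.0 on day 4, while knock-out libraries held 120.4, 110.5 and 118 CPM on day 3 and 116, 108 and 120.4 on day 4. Its day 4 difference was 1.05 ± 0.12 (adjusted p = 4.30e-07) and its difference of steps 1.16 ± 0.17 (adjusted p = 4.89e-05).

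The Eph receptors went in both directions on day 4, with 6 lower and 5 higher in the knock-out. Epha2 fell in both genotypes from day 0 to day 2 and rose in both from day 2 to day 3, with a difference of steps of -1.94 ± 0.20. It reached 213, 247 and 229 CPM in the wild-type on day 3, against 64.1, 61.0 and 67.1 CPM in the knock-out (-1.84 ± 0.14, adjusted p = 4.42e-09). On day 4 wild-type libraries held 111, 129 and 153 CPM and knock-out libraries 84.5, 62.5 and 96.5 CPM (-0.70 ± 0.13, adjusted p = 2.13e-04). Epha1 stood at 205, 234 and 228 CPM on wild-type day 3 and at 39.4, 60.0 and 72.3 on day 4, and in the knock-out at 74.8, 66.8 and 77.1 CPM on day 3 and 95.8, 78.6 and 109 on day 4. Its difference therefore changed sign, from -1.41 ± 0.21 on day 0, -0.73 ± 0.18 on day 2 and -1.61 ± 0.18 on day 3 to 0.72 ± 0.18 on day 4 (adjusted p = 7.95e-05, 0.00456, 1.04e-06 and 0.00211). The day 4 sign was not called when only the day 4 groups were fitted. Epha1 shares 156 bases with Zyx on the opposite strand, and the counting is not known to have used strand, so its counts may hold reads of Zyx. Epha4, a receptor for ephrins of both classes, fell over days 0 to 3 in both genotypes and rose in the wild-type to 51.8, 42.8 and 41.3 CPM, against 12.6, 15.2 and 14.1 CPM in the knock-out (-1.70 ± 0.09, adjusted p = 3.43e-13). Epha7 was lower in the knock-out on day 3 (-1.29 ± 0.14) and day 4 (-1.38 ± 0.14, 46.6 against 17.97 CPM). Epha5 stood at 124 CPM in wild-type and 96.9 CPM in knock-out libraries on day 4 (-0.36 ± 0.07). Among EphB receptors, Ephb2 (-0.64 ± 0.08) and Ephb3 (-1.09 ± 0.11) were lower in the knock-out on day 4, and Ephb4, a receptor of Efnb2, was higher at 99.4, 91.7 and 97.5 against 54.8, 55.6 and 54.4 CPM (0.81 ± 0.10, adjusted p = 2.58e-07). Ephb6, a receptor without kinase activity, was higher (0.59 ± 0.17), as were the low members Epha8 (1.99 ± 0.26, 3.68 against 0.913 CPM) and Epha3 (1.13 ± 0.40, lost without wild-type day 4 replicate 1 or knock-out day 4 replicate 2). Ephb1, Epha6 and Epha10 were not called on day 4, with group means up to 5.74 CPM.

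The order of the 3 libraries of a group in these values was set beside their order in marker values. Feeder fibroblast markers were measured on day 0 in 16 of 16 genes, with sums of 1165, 2099 and 1780 CPM in the 3 wild-type libraries and 3055, 2184 and 1153 CPM in the 3 knock-out libraries. After day 0 their sum was 59.9 to 220 CPM, and S100a4 was at 0 in 3 of the later groups. In the knock-out, day 0 Nrp1 (38.2, 27.2 and 12.2 CPM), Slit2 (44.0, 29.4 and 18.1), Slit3 (49.5, 36.3 and 20.98), Sema3a (10.6, 7.90 and 3.65), Sema3c (15.1, 11.6 and 4.79) and Unc5c (7.89, 5.37 and 2.42) ran in the same order as that sum. In all, 27 of the 66 tested members ran in that order and 18 in the reverse (beside 24.9% and 25.3% of all tested genes), and in the wild-type 29 did, these 6 genes among them, and none in the reverse (beside 22.5% and 16.3%). The part of feeder RNA in day 0 levels was not tested. Primitive streak markers, 7 of 7 of which were at 1 CPM or more in the wild-type groups of days 3 and 4, summed to 1626, 1175 and 924 CPM across wild-type day 3 and to 80.8 to 98.5 CPM in the knock-out. In those wild-type libraries 16 members ran in the same order as this sum, among them Ntn1, Sema6d, Plxna2 and Efnb1. In the reverse order ran 14, among them Sema3c, Sema3e, Sema6a, Slit3 and Robo1 (beside 20.4% and 21.8% of all tested genes). Of the 66 tested members, both counts were near these shares. Nrp2 and Sema4g also ran in the reverse order, though both were lower in the knock-out on day 3. Slit3 and Sema6a were not called between genotypes on that day. The part of cell composition in these differences was not tested. On wild-type day 4, 20 members ran in the same order as Kdr, among them Nrp1, Sema3a, Robo3, Slit1, Sema6d, Plxna2, Efna3, Efnb1 and Epha4, and 23 in the reverse order, among them Sema3c, Sema6a, Slit3, Efnb2, Epha1 and Epha2 (beside 23.8% and 22.4%). Of these 23, Epha2, Ephb3, Ntn1, Plxnb3, Sema3f, Sema4c and Sema4g were lower in the knock-out on day 4. Of the 10 mesoderm markers, Hand1, Hand2, Mesp1 and Msgn1 were at 0 in the knock-out of that day and measured in the wild-type, while Foxf1 was at 0 in every group. The part of such cells was not tested either.

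Other genes of the guidance pathways were read from lists of their own. Of 11 tested genes for further netrin, Slit and repulsive guidance molecules, 3 were lower and 0 higher in the knock-out on day 4, and 3 were lower and 2 higher on day 3, beside 27.6% of all genes lower and 26.3% higher on day 4, and 20.5% and 20.8% on day 3. Rgma, a repulsive guidance molecule that binds the netrin receptor neogenin, was the leading gene: 18.2 and 1.66 CPM on day 3 and 26.1 and 4.66 on day 4 (wild-type and knock-out means), with log2 fold changes of -3.44 ± 0.30 and -2.49 ± 0.27 (adjusted p = 1.54e-08 and 9.34e-08). Neo1, which encodes neogenin, was at 90.3 and 76.3 CPM on day 4 (-0.24 ± 0.09). Of 47 intracellular effectors, 15 were higher and 12 lower in the knock-out on day 4, with a median log2 fold change of -0.02, beside 54% of all genes called on that day. Crmp1, a mediator of semaphorin signalling in growth cones, stood at 26.9 and 109 CPM (2.02 ± 0.15, adjusted p = 7.35e-10), and the Rac activator Tiam1 (1.01 ± 0.09) and the kinase Pak1 (0.76 ± 0.06) were also higher. Of 12 tested adhesion molecules of growing axons, 3 were higher and 4 lower on day 4, again beside 54% of all genes. Nfasc (2.53 ± 0.21, 19.8 and 115 CPM) and Cntn2 (2.36 ± 0.19, 6.56 and 33.9 CPM) were higher and L1cam was lower (-1.79 ± 0.20, 20.4 and 5.89 CPM), again with the wild-type mean first.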

How the data were processed

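PolyA+ RNA was sequenced from 24 libraries (2 genotypes, 4 days, 3 libraries each). The authors deposited 1 table of raw gene counts with 55401 entries, made per the submitters' processing notes with Trimmomatic, HISAT2 and GRCm38.p6. Tool versions, the counter and its strand setting are not given in these sources, so reads of opposite-strand overlaps (Zyx over Epha1) cannot be assigned. Gene names were those of the count table, and all 24 count columns were used. GENCODE annotation gave gene bounds, exon lengths and overlapping genes. Counts were normalised by TMM, filtered by filterByExpr and tested with edgeR 4.0.16 (R 4.3.3) by the quasi-likelihood test, 1 fit with 8 group means, Benjamini-Hochberg adjustment over 17144 genes and a threshold of 0.05. Ntn5 was not tested. CPM values use the normalised library size, and intervals on ratios (95%) cover counting error only.

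The members, gene lists and markers were chosen with earlier results of these data known, so their counts describe these libraries. Genes given full values were, per family and comparison, up to 3 with the largest log2 fold change past the threshold. They also had no overlap between libraries and at least 5 CPM in the higher group. Values by library were in places given outside this rule, as for Unc5d, whose group means stayed under 5 CPM. Any member may be named by its level. Other members are named with a fold change to account for the whole family, and examples from the pathway lists were those with the lowest adjusted p. Promoter bases came from RefSeq. Alternatives were size factors or the Wald test of DESeq2 1.42.0, testing all genes with a count, fitting the compared groups alone, a block on replicate number, and leaving out each library in turn. Replicate numbers showed no clear pairing of the genotypes. Same-numbered wild-type and knock-out libraries of a day correlated at -0.225 to 0.105 in their deviations from the group means. Pairs with other numbers averaged -0.015 to 0.030 by day. These values cannot show whether same-numbered libraries were handled together. Pairing across days within a genotype was not checked, and the steps between days were tested as unpaired. No 2 libraries of a group agreed within sampling noise.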

Additional observations from a re-analysis of the deposited data

Results flagged for a closer look

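For the members below, the change between consecutive days differed between the genotypes by a test of the difference itself (edgeR quasi-likelihood, knock-out step minus wild-type step, adjusted p under 0.05). Values are differences of log2 fold changes, and explanations were not tested.

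From day 0 to day 2 the difference was -2.07 for Slit2, -1.31 for Efnb1 and -0.50 for Robo1, which moved less upward or further downward in the knock-out. It was 1.53 for Ephb1, 1.00 for Efnb2 and 0.86 for Sema3e. The Efnb1 call was lost without any 1 of 9 of the 12 libraries, the Robo1 call without any 1 of 10 and the Ephb1 call without knock-out day 0 replicate 2.

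From day 2 to day 3 the ligands Ntn1 (-5.0), Efna3 (-2.07) and Sema7a (-1.88) and the receptors Plxna2 (-2.97), Epha2 (-1.94) and Nrp2 (-1.25) had the lower knock-out step. Sema3c (1.53), Sema4a (1.42), Ephb1 (1.27), Epha8 (1.16) and Robo1 (1.05) had the higher one. The Sema3c call was lost without any 1 of 11 of the 12 libraries, and the Nrp2 call without knock-out day 2 replicate 2, knock-out day 3 replicate 2 or wild-type day 2 replicate 1.

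From day 3 to day 4 the knock-out step was lower for the receptors Robo3 (-7.55, with 1 count in the knock-out of day 4), Nrp1 (-4.81), Plxna4 (-4.56), Epha4 (-1.80), Robo1 (-1.80) and Plxnd1 (-1.10). Among ligands it was lower for Slit1 (-2.72), Sema5b (-2.65), Sema3a (-2.43), Efna5 (-1.30) and Efna1 (-0.96). It was higher for Epha1 (2.33), Ntn1 (2.21), Sema3c (2.19), Slit3 (1.51), Efnb2 (1.16), Epha2 (1.15) and Unc5a (1.07). The Plxnd1 call was lost without knock-out day 3 replicate 1, knock-out day 4 replicate 2 or wild-type day 4 replicate 1. The Ntn1 call was lost when only the groups compared were fitted.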

How the results depend on the processing

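No member called in a comparison was called in the opposite direction under an alternative. The balance of step differences did turn: from day 0 to day 2, 3 were higher and 4 lower, against 4 and 3 with DESeq2 size factors, and from day 2 to day 3, 8 and 9, against 13 and 12 when only the groups compared were fitted. When only the groups compared were fitted, 0 members were higher on day 0 (5 with all libraries) and 24 rose and 4 fell in the knock-out from day 3 to day 4 (10 and 2). By the DESeq2 Wald test 7 members had the higher and 8 the lower knock-out step from day 0 to day 2 (3 and 4). With 1 library left out, the higher members of day 0 ranged from 1 to 5 and the lower members of day 2 from 7 to 12. In the knock-out, rises from day 2 to day 3 ranged from 9 to 12 (9 without knock-out day 3 replicate 1 or day 2 replicate 2, 14 with all) and falls from day 3 to day 4 from 0 to 1. For the step from day 0 to day 2 the higher differences ranged from 2 to 5 (5 without wild-type day 0 replicate 1) and the lower ones from 2 to 8 (8 without knock-out day 0 replicate 3; 2 without wild-type day 0 replicate 1, wild-type day 2 replicate 1 or any knock-out library of day 2). The cause of these changes was not tested. With the replicate number as a block, 35 members were lower and 19 higher on day 4, as without it, and no count moved by over 1.5 times; the calls of Robo1 (step difference, day 0 to day 2), Sema3c (step difference, day 2 to day 3), Sema3f (step difference, day 3 to day 4) and Sema6a (knock-out, day 2 to day 3) were lost. Members with few counts (Plxnb3, Robo3, Robo4) are limited by depth.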

Other observations

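Some members are neighbours on a chromosome (GENCODE gene bounds), and their day 4 differences are given side by side with no test. Efna1, Efna3 and Efna4 lie on chromosome 3, with gaps of 32.8 kb and 10.4 kb, and were all lower in the knock-out (-1.38, -2.70 and -0.63). The Robo4 call of day 4 rested on 11 counts against 1 and was lost without any 1 of 3 libraries. Robo4 and Robo3 lie 553 bases apart on chromosome 9 and were called in opposite directions on that day. Ephb2 and Epha8, 93.4 kb apart on chromosome 4, also were (-0.64 and 1.99). Sema3a and Sema3e, 423 kb apart on chromosome 5, stood at -3.02 and 1.26.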
